A study of Mus musculus with 18 samples.

Results

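The later course of retinoic acid differentiation was followed in mouse embryonic stem cells (ESCs) labelled Oct1 cKO. ESCs are pluripotent cells that can form every lineage of the embryo. The 3 Oct1 cKO libraries of day 6 were compared with the 3 Oct1 cKO libraries of day 2, picked by their genotype and differentiation day in the labels, which makes 6 of the 18 libraries of the series. The 3 parental libraries of day 6 and the 3 of day 2 served to ask where the Oct1 cKO step differed. All of these cells grew on 0.01% gelatin in DMEM with 1.5 ug/ml retinoic acid, NEAA, L-glutamine and Pen/Strep, and the design text calls the plated ESCs depleted without saying of what. For the day 0 libraries of both lines, used in the fit and the time course, no retinoic acid or gelatin is given. The sources used here do not give the strain, the way the allele was removed, the number of clones, nor say if a group's 3 libraries are separate cultures. Every p-value therefore measures the spread between libraries, which may be technical. The series title names Oct1, Smad factors and mesoderm.

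Oct1 is the product of Pou2f1, a POU-domain transcription factor that binds the octamer sequence and is made in nearly every cell type. Retinoic acid binds nuclear receptors that act on genes such as the Hox clusters and Cyp26a1, and it drives ESCs out of pluripotency. Cells that leave the ESC state in culture can turn on programmes of the embryo proper or of the extraembryonic tissues. Trophoblast builds the placenta and relies on factors such as Cdx2, Gata3, Tfap2c and Hand1. Primitive endoderm gives visceral endoderm, which secretes apolipoproteins and Ttr, and parietal endoderm, which lays down a thick basement membrane of laminin and type IV collagen.

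Levels are given as CPM, the count of a gene per 1000000 counts of the TMM-scaled library, and log2 fold changes and their standard errors (SE) come from the quasi-likelihood test of edgeR. Genes were called at a Benjamini-Hochberg adjusted p under 0.05. Of 18352 genes tested, 7271 were called higher at day 6 than at day 2 in Oct1 cKO cells, which is 39.6% of those tested. Another 7632 were called lower, or 41.6%. At least 2-fold higher were 3921 genes (21.4%), and at least 2-fold lower were 4467 (24.3%). The median log2 fold change of all genes was -0.04, with quartiles of -1.01 and 0.86. With 81.2% of all genes called, a call by itself set a gene little apart, so the counts of each gene list below are read beside these shares.

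The 6 libraries held 17389280 to 19018933 counts at day 6 and 14426904 to 16459522 at day 2. Mitochondrial genes took 0.996% to 1.13% of the counts at day 6 and 1.40% to 1.55% at day 2. Ribosomal protein genes took 2.84% to 3.07% at day 6 and 5.65% to 5.88% at day 2. Genes with at least 10 counts numbered 14775 to 15023 at day 6 and 15525 to 15896 at day 2. What part these shares had in the results was not tested. Library sizes with no scaling factor moved the median of all genes by -0.19, to -0.23. RNA of a whole culture was measured, so fewer cells of a type and less RNA per cell cannot be told apart.

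Pou2f1, the gene of Oct1, was not absent from the libraries labelled Oct1 cKO. It stood at 36.0, 45.3 and 44.5 CPM at day 6, against 59.5, 60.8 and 58.8 CPM at day 2. All 3 day 6 libraries lay below all 3 day 2 libraries, and such groups without overlap were found for 82.0% of all genes (log2 fold change -0.51 ± 0.11 SE, adjusted p = 4.24e-04). In parental cells Pou2f1 averaged 63.4 ± 2.05 CPM at day 6 and 103 ± 4.35 CPM at day 2 (SD, n = 3 each), so it also fell there (log2 fold change -0.70 ± 0.10 SE, adjusted p = 5.49e-06). Counts per whole gene include reads from exons outside a deleted part, so this level does not check the deletion. The related Pou2f2, which is best known from B cells, fell and Pou2f3, a factor of tuft cells, rose. Pou2f2 averaged 0.416 ± 0.198 CPM at day 6 and 3.97 ± 0.671 CPM at day 2, and Pou2f3 8.29 ± 0.711 CPM at day 6 and 4.32 ± 0.657 CPM at day 2.

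Krt7, Cdh5, Apoa1 and Hand1 had been given as marker genes of these libraries, and all 4 were far higher at day 6. Positions are on GRCm38, from the GENCODE annotation. Krt7 (chromosome 15, 101411043 to 101430313), a keratin of simple epithelia and trophoblast, was at 399, 359 and 380 CPM at day 6, against 4.94, 5.54 and 5.01 CPM at day 2 (log2 fold change 6.19 ± 0.08 SE, adjusted p = 1.39e-39). Cdh5 (chromosome 8, 104101625 to 104144511), the VE-cadherin of endothelium that trophoblast can also make, was at 282, 264 and 285 CPM at day 6, against 0.190, 0.292 and 0.401 CPM at day 2 (log2 fold change 9.85 ± 0.12 SE, adjusted p = 1.64e-39). No library of either day overlapped the other group for these genes. Apoa1 (chromosome 9, 46228580 to 46230466), an apolipoprotein secreted by visceral endoderm and liver, was at 44.4, 43.0 and 44.5 CPM at day 6, against 0.570, 0.350 and 0.334 CPM at day 2. Hand1 (chromosome 11, 57828705 to 57832818), a factor of trophoblast giant cells and of heart and extraembryonic mesoderm, was at 104, 88.7 and 86.5 CPM at day 6, against 3.99, 4.02 and 3.88 CPM at day 2. The log2 fold change was 6.69 ± 0.16 SE for Apoa1 (adjusted p = 1.44e-29) and 4.55 ± 0.11 SE for Hand1 (adjusted p = 7.94e-31). These markers belong to different lineages, and how many cells expressed each was not measured.

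**Figure D1:**
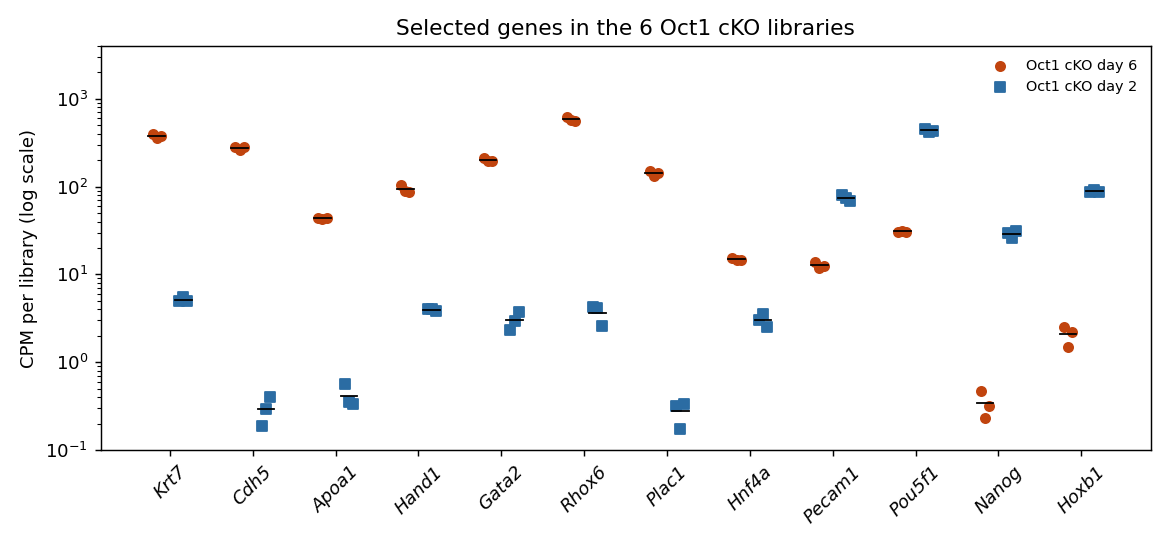
CPM in each of the 6 Oct1 cKO libraries for 12 genes, on a log axis, with day 6 as circles left of day 2 as squares and a bar at each mean. Krt7 to Hnf4a sit above their day 2 values in all 3 day 6 libraries, and Pecam1, Pou5f1, Nanog and Hoxb1 sit below.

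Most regulators of trophoblast rose. Of 24 tested, 20 were called higher and 3 lower, with a median log2 fold change of 2.63 against -0.04 over all genes. Rhox6 and Rhox9, neighbouring homeobox genes of the X chromosome active in placenta, had the largest log2 fold changes of the list. Rhox6 was at 618, 575 and 564 CPM at day 6, against 4.25, 4.14 and 2.61 CPM at day 2, and Rhox9 at 635, 592 and 592 CPM at day 6, against 4.50, 3.21 and 4.01 CPM at day 2. These genes are close copies, so reads may be shared between them and the split is uncertain. Gata2, which works with Gata3 in trophoblast, was at 213, 196 and 195 CPM at day 6, against 2.34, 2.97 and 3.74 CPM at day 2 (log2 fold change 6.06 ± 0.10 SE, adjusted p = 2.49e-36). Gata3 was at 89.0, 88.0 and 89.4 CPM at day 6, against 3.68, 3.09 and 4.21 CPM at day 2 (log2 fold change 4.61 ± 0.09 SE, adjusted p = 8.68e-34). For both Gata genes the day 6 libraries lay close together and far above day 2. Dlx3, a homeobox factor needed in the placental labyrinth, was at 96.9, 97.1 and 105 CPM at day 6, against 2.28, 1.87 and 2.34 CPM at day 2. Arid3a, a DNA-binding factor of trophectoderm, was at 255, 254 and 271 CPM at day 6, against 15.8, 15.7 and 16.8 CPM at day 2, and Tfap2c, an AP-2 factor of trophectoderm and germ cells, was at 255, 241 and 242 CPM at day 6, against 14.4, 16.6 and 18.7 CPM at day 2. Log2 fold changes of these 3 were 5.53, 4.02 and 3.89, each with separate groups.

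Classical stem cell factors of trophoblast did not all follow. Cdx2 was at 10.5, 8.69 and 8.20 CPM at day 6, against 0.317, 0.525 and 0.602 CPM at day 2 (log2 fold change 4.23 ± 0.24 SE, adjusted p = 6.05e-19). Elf5, an ETS factor of trophoblast stem cells, was at 5.66, 4.86 and 6.67 CPM at day 6, against 0, 0 and 0.267 CPM at day 2, with only 4 counts over the day 2 libraries (log2 fold change 5.98 ± 0.49 SE, adjusted p = 2.85e-12). Both rose, from a low level at day 2. Eomes, a T-box factor of trophoblast stem cells and of mesendoderm, fell to 5.12, 4.11 and 3.75 CPM at day 6, against 9.19, 8.98 and 9.23 CPM at day 2 (log2 fold change -1.07 ± 0.13 SE, adjusted p = 7.98e-10). Esrrb, shared by ESCs and trophoblast stem cells, also fell, and averaged 2.78 ± 0.415 CPM at day 6 and 41.6 ± 3.07 CPM at day 2. Gcm1, which starts the syncytiotrophoblast branch, was at 0, 0 and 0.0636 CPM at day 6, against 3.68, 2.86 and 3.34 CPM at day 2, with 1 count in all over the 3 day 6 libraries.

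Genes for placental products were higher in 18 of 19 tested, with Mmp9 the exception, and their median log2 fold change was 4.36, or 3.81 with the genes at 0 on day 2 put at their lower bound. Plac1, a membrane protein of trophoblast encoded on the X chromosome, was at 149, 133 and 142 CPM at day 6, against 0.317, 0.175 and 0.334 CPM at day 2 (log2 fold change 8.99 ± 0.13 SE, adjusted p = 9.18e-38). Syna, an envelope-derived protein that fuses syncytiotrophoblast cells, was at 91.2, 91.1 and 90.0 CPM at day 6, against 0.570, 0.350 and 0.602 CPM at day 2 (log2 fold change 7.48 ± 0.14 SE, adjusted p = 3.13e-34). Day 2 values of both were under 1 CPM in every library. Plac8 averaged 241 ± 12.9 CPM at day 6 and 16 ± 0.609 CPM at day 2. Cited2, a coactivator needed for placental growth, averaged 401 ± 22.4 CPM at day 6 and 22.6 ± 2.14 CPM at day 2. Cyp11a1, which makes pregnenolone in giant cells, averaged 38.7 ± 1.20 CPM at day 6 and 2.76 ± 0.268 CPM at day 2. Mmp9, a gelatinase of invading trophoblast, went the other way, at 22.9, 22.2 and 22.7 CPM at day 6, against 152, 150 and 146 CPM at day 2.

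Peg10, an imprinted gene derived from a retrotransposon and needed for the placenta, was among the 10 genes that the naming rule picked for the largest gain in CPM. It was at 14487, 14091 and 14788 CPM at day 6, against 2096, 2016 and 2138 CPM at day 2 (log2 fold change 2.79 ± 0.05 SE, adjusted p = 1.1e-33).

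Multigene families of chromosome 13 that mouse placenta uses came on at day 6, in Oct1 cKO cells and in parental cells. These families were picked after their values had been seen, and members of a family can share reads. All 7 Serpinb9 genes, serine protease inhibitors of which several are made by placenta, were called higher, and 4 of them had no count at day 2. Serpinb9b was at 340, 319 and 325 CPM at day 6, against 0.190, 0.408 and 0.134 CPM at day 2, and Serpinb9e at 214, 204 and 197 CPM at day 6, against 0, 0.233 and 0.0669 CPM at day 2. Serpinb9g was at 35.6, 32.5 and 34.0 CPM at day 6, at least 180-fold higher than the floor of 3 counts per library at day 2, where it had none. On the same terms Serpinb9f was at least 171-fold higher, Serpinb9c at least 155-fold and Serpinb9d at least 71.0-fold. Of 14 tested prolactin-like hormone genes, 12 were called higher and 0 lower, and none had more than a trace at day 2. Prl2c5 was at 25.1, 19.5 and 20.3 CPM at day 6, with 1 count over the day 2 libraries. Prl2b1 was at 16, 13.1 and 10.9 CPM at day 6 and at 0 on day 2, at least 70.8-fold higher. In parental cells all 7 Serpinb9 genes and all 14 tested prolactin-like genes were also called higher. Parental day 6 means reached 70.6 CPM for Serpinb9 genes and 27.1 CPM for prolactin-like genes.

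Tpbpa, a marker of spongiotrophoblast, had the largest lower bound among the named genes with no count at day 2. It was at 37.8, 37.3 and 34.4 CPM at day 6, against 0, 0 and 0 CPM at day 2, at least 193-fold higher. All 4 tested cathepsins of the placental cluster were called higher. The same 4 were called higher in parental cells, where day 6 means reached 64.5 CPM. In Oct1 cKO cells their levels were as follows. Ctsj was at 29.1, 25.2 and 23.6 CPM at day 6 and Ctsr at 15, 11.6 and 15.1 CPM, both with no count at day 2, which makes them at least 138-fold and 73.7-fold higher. On chromosome 7, all 4 tested Psg genes, secreted glycoproteins of trophoblast, were called higher. Ceacam9, of the neighbouring family, was at 18.8, 16.6 and 14.3 CPM at day 6 and at 0 on day 2, at least 87.8-fold higher. Of 7 tested Ceacam genes, 4 were called higher and 2 lower. Of 13 tested Rhox genes, 4 were called higher and 5 lower, and among them Rhox12 was at 12.5, 12.2 and 11.5 CPM at day 6 and at 0 on day 2, at least 63.9-fold higher.

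Since neighbours of these families were higher at day 6, the 100 bases before the start of 7 of them are shown, from RefSeq promoter sequences on GRCm38.p6, 5′ to 3′ on the gene's strand. The Serpinb9 genes lie on the plus strand, at chr13:33192855-33192954, chr13:33249508-33249607, chr13:33323977-33324076 and chr13:33484690-33484789. Capitals mark the longest block that these 4 share, which was found after the values had been seen.
Serpinb9d: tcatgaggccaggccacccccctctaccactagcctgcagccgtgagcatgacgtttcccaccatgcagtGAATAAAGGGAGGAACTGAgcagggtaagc
Serpinb9e: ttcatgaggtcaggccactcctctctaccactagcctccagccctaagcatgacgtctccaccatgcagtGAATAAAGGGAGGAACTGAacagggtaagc
Serpinb9f: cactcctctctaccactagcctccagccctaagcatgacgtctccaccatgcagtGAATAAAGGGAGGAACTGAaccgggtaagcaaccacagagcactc
Serpinb9g: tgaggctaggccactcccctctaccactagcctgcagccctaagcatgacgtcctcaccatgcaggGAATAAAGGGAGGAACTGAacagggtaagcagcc

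The block GAATAAAGGGAGGAACTGA of 19 bases began 30 bases before the start of Serpinb9d and Serpinb9e, 45 before that of Serpinb9f and 34 before that of Serpinb9g. It was in 4 of 16197 promoters of 300 bases, or 0.0247%, which are those of the 4 genes used to define it. The searched promoters of Serpinb9b and Serpinb9c, also called higher at day 6, did not hold it. The 4 stretches are similar along most of their length, as copies of a duplicated gene are.

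Tpbpa, Ctsj and Ctsr lie on the minus strand of the same chromosome, at chr13:60941937-60942036, chr13:61005926-61006025 and chr13:61164189-61164288. Capitals again mark their longest shared block.
Tpbpa: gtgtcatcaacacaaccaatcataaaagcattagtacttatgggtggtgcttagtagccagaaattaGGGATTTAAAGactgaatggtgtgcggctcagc
Ctsj: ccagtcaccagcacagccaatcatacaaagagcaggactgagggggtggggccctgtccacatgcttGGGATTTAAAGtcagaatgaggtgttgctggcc
Ctsr: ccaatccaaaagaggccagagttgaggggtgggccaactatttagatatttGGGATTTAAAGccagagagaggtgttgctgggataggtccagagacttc

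The block GGGATTTAAAG of 11 bases began 33 bases before the start of Tpbpa and Ctsj and 49 before that of Ctsr. It was in 5 of 16197 promoters, or 0.0309%, among them those of the 3 genes used to define it. The octamer ATGCAAAT, searched on both strands from 250 bases before to 50 after the start, had 1 match in the promoter of Tpbpa and none in those of Ctsj, Ctsr and the 6 Serpinb9 genes searched. Over all genes, a promoter with the octamer was found for 1.90% of 2840 genes at least 2-fold higher and 2.16% of 2734 genes at least 2-fold lower. The share was 1.72% of all 12748 tested genes with a promoter. The GATA motif AGATAAG was in promoters of 3.24%, 2.82% and 2.57% of the same sets of genes, with 1 match in the promoters of Plac1. A retinoic acid element written as 2 exact AGGTCA copies with 5 bases between, searched on either strand, was found for 1 gene of the 12748. Other spellings and spacings of the element were not searched. A match is a run of letters, not a site shown to be bound.

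Genes of simple epithelium were higher in 26 of 30 tested and lower in 2, with a median log2 fold change of 1.34. Krt8 and Krt18 pair into the keratin filaments of such epithelia. Krt8 was at 1636, 1476 and 1431 CPM at day 6, against 69.5, 63.6 and 65.3 CPM at day 2 (log2 fold change 4.52 ± 0.07 SE, adjusted p = 4.24e-36). Krt18 was at 1711, 1520 and 1481 CPM at day 6, against 181, 179 and 172 CPM at day 2, and Krt19, a small keratin of the same kind, at 1162, 1020 and 1051 CPM at day 6, against 49.1, 53.2 and 61.3 CPM at day 2. Every day 6 library exceeded every day 2 library by far. Dsp, the plaque protein of desmosomes, averaged 463 ± 13.7 CPM at day 6 and 24.9 ± 0.971 CPM at day 2. Prss8, a membrane protease of epithelia, averaged 237 ± 11.2 CPM at day 6 and 12.5 ± 0.743 CPM at day 2, and Esrp2, a splicing factor that keeps epithelial isoforms, 49.2 ± 1.60 CPM at day 6 and 2.05 ± 0.0579 CPM at day 2. The tight junction claudins Cldn3 and Cldn4 averaged 34.8 ± 0.518 and 240 ± 19.3 CPM at day 6, against 9.24 ± 0.893 and 106 ± 2.86 CPM at day 2. Krt20, an intestinal and bladder keratin, fell, at 6.49, 5.21 and 3.88 CPM at day 6, against 58.8, 54.3 and 58.1 CPM at day 2.

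E-cadherin was kept at day 6. Cdh1 was at 524, 486 and 541 CPM at day 6, against 475, 444 and 469 CPM at day 2, a log2 fold change of 0.16 ± 0.05 SE (adjusted p = 0.00265) whose sign flipped to -0.03 with library sizes alone. Parental cells had 42.4 ± 3.16 CPM at day 6 and 344 ± 13.7 CPM at day 2 (SD, n = 3 each), and the difference between the steps was called (log2 difference 3.18 ± 0.07 SE, adjusted p = 3.64e-30). Cdh2, the N-cadherin of neural and mesenchymal cells, rose but stayed low. It was at 14.1, 12.5 and 9.72 CPM at day 6, against 3.55, 3.73 and 3.94 CPM at day 2 in Oct1 cKO cells, while parental cells averaged 166 ± 5.55 CPM at day 6 and 26.8 ± 1.92 CPM at day 2.

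Endoderm transcription factors rose in 12 of 17 tested and fell in 5, with a median log2 fold change of 2.28. Gata4, which with Gata6 sets up primitive endoderm, was at 198, 200 and 188 CPM at day 6, against 29.6, 31.5 and 29.0 CPM at day 2 (log2 fold change 2.70 ± 0.06 SE, adjusted p = 3.69e-32). Gata6 was at 71.3, 69.2 and 63.5 CPM at day 6, against 28.5, 24.5 and 26.6 CPM at day 2 (log2 fold change 1.36 ± 0.07 SE, adjusted p = 5.04e-21). Foxa2, a pioneer factor of endoderm, averaged 35.2 ± 2.78 CPM at day 6 and 2.37 ± 0.216 CPM at day 2, and Sox17, which acts in endoderm and in endothelium, 43.8 ± 2.60 CPM at day 6 and 3.57 ± 0.531 CPM at day 2. Hnf4a, which turns on liver and visceral endoderm genes, was at 15.4, 14.7 and 14.7 CPM at day 6, against 3.04, 3.56 and 2.54 CPM at day 2 (log2 fold change 2.28 ± 0.14 SE, adjusted p = 7.83e-18). Hhex and Foxa1 were among those that fell, with averages of 1.65 ± 0.191 CPM at day 6 and 11.6 ± 0.776 CPM at day 2 and of 6.96 ± 0.196 CPM at day 6 and 10.9 ± 0.482 CPM at day 2.

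Secreted and uptake genes of visceral endoderm were split. Higher were 16 of 26 tested and lower were 9, with a median log2 fold change of 2.17. Ttr, the thyroid hormone carrier, was at 42.0, 40.1 and 42.8 CPM at day 6, against 0.127, 0.0583 and 0 CPM at day 2, with 3 counts there in all. Rbp4, the retinol carrier, was at 143, 145 and 144 CPM at day 6, against 5.32, 4.84 and 5.28 CPM at day 2 (log2 fold change 4.81 ± 0.07 SE, adjusted p = 3.79e-37), and Afp, the fetal serum protein, at 8.99, 7.70 and 8.52 CPM at day 6, against 0.380, 0.233 and 0.201 CPM at day 2 (log2 fold change 4.91 ± 0.24 SE, adjusted p = 7.52e-21). Mttp, which loads lipid onto lipoproteins, averaged 263 ± 10.8 CPM at day 6 and 32.6 ± 3.11 CPM at day 2. Cubn, the uptake receptor cubilin, averaged 545 ± 62.3 CPM at day 6 and 235 ± 29.6 CPM at day 2. Its partners fell, with Amn at 0.726 ± 0.189 CPM at day 6 and 3.84 ± 0.295 CPM at day 2 on average and Lrp2 at 89.0 ± 5.18 CPM at day 6 and 252 ± 19.9 CPM at day 2. Apoe, a lipid carrier made by many cell types and already abundant at day 2, fell to 165, 153 and 159 CPM at day 6, against 1754, 1501 and 1509 CPM at day 2. The summed CPM of this list was therefore lower at day 6, at 1628 to 1794 against 2104 to 2400 at day 2.

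Basement membrane and parietal endoderm genes were higher in 17 of 20 tested and lower in 2, with a median log2 fold change of 1.73. Col4a1 and Col4a2, chains of type IV collagen whose genes lie head to head on chromosome 8, both rose. Col4a1 was at 9087, 9821 and 9515 CPM at day 6, against 973, 968 and 889 CPM at day 2 (log2 fold change 3.33 ± 0.05 SE, adjusted p = 3.51e-37), and Col4a2 at 4753, 5155 and 4964 CPM at day 6, against 506, 477 and 448 CPM at day 2. The laminin chains Lama1, Lamb1 and Lamc1, which form laminin-111 together, averaged 2437 ± 146, 3122 ± 121 and 2817 ± 164 CPM at day 6. At day 2 they averaged 408 ± 29.4, 747 ± 46.4 and 1017 ± 36.9 CPM. Sparc, a collagen-binding protein abundant in parietal endoderm, was at 5468, 5694 and 5647 CPM at day 6, against 945, 892 and 845 CPM at day 2. Pth1r, a receptor that marks parietal endoderm, was at 184, 193 and 180 CPM at day 6, against 5.77, 4.43 and 6.02 CPM at day 2 (log2 fold change 5.11 ± 0.09 SE, adjusted p = 2.23e-35), and Plat, its plasminogen activator, averaged 309 ± 2.11 CPM at day 6 and 30.5 ± 2.73 CPM at day 2. The list as a whole summed to 35678 to 38327 CPM at day 6 and 8548 to 9243 CPM at day 2.

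Genes of definitive endoderm and gut showed no common direction, with 7 of 14 tested higher, 5 lower and a median of -0.36. Tmprss2, a membrane protease of gut and prostate, averaged 172 ± 9.06 CPM at day 6 and 4.03 ± 0.500 CPM at day 2, and Muc13, a membrane mucin, 22.8 ± 1.31 CPM at day 6 and 0.849 ± 0.365 CPM at day 2. Both rose. Cdx1, a factor of the hindgut, fell and averaged 1.75 ± 0.145 CPM at day 6 and 16.5 ± 1.06 CPM at day 2.

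**Figure D2:**
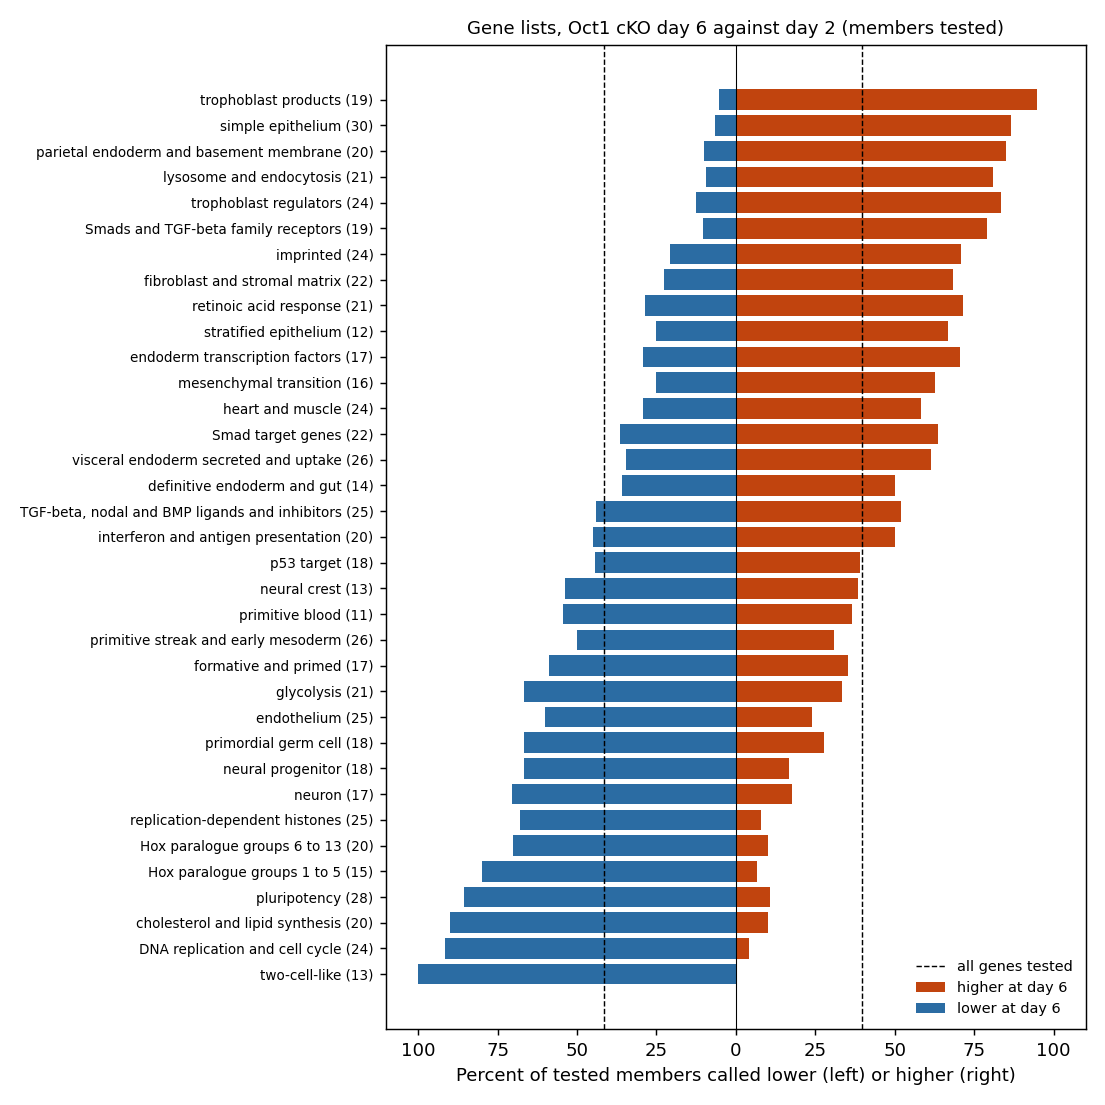
Share of the tested members of 35 gene lists called higher (right) and lower (left) at day 6 against day 2 in Oct1 cKO cells, with the number tested in brackets and dashed lines at the shares of all genes, 39.6% and 41.6%. Trophoblast products, simple epithelium and parietal endoderm lie at the top, and 2-cell-like, cell cycle, lipid synthesis, pluripotency and Hox lists at the bottom.

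Endothelial genes were more often lower than higher at day 6. Of 25 tested, 6 were higher and 15 lower, with a median log2 fold change of -1.57, while the summed CPM of the list was 741 to 771 at day 6 and 288 to 299 at day 2. Most of the day 6 sum came from Cdh5 and Flt1. The 6 that rose were Cdh5, Flt1, Kdr, Esam, Sox17 and Ets1. Flt1, a VEGF receptor that trophoblast also makes, was at 268, 272 and 242 CPM at day 6, against 7.73, 8.57 and 11.4 CPM at day 2 (log2 fold change 4.83 ± 0.08 SE, adjusted p = 1.41e-34). Kdr, the main VEGF receptor of endothelium and its mesodermal forerunners, was at 12.4, 13.1 and 13.1 CPM at day 6, against 0.634, 0.933 and 0.602 CPM at day 2 (log2 fold change 4.13 ± 0.17 SE, adjusted p = 3.21e-23). Parental cells averaged 226 ± 15.1 CPM of Kdr at day 6 and 10.2 ± 0.907 CPM at day 2, and the difference between the steps did not pass the test (log2 difference -0.34 ± 0.27 SE, adjusted p = 0.290). Esam, a junction protein, averaged 38.4 ± 4.33 CPM at day 6 and 2.86 ± 0.161 CPM at day 2.

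Unlike Cdh5 and Flt1, several other markers of endothelium were lower at day 6. Pecam1, an adhesion protein that ESCs make too, was at 13.9, 11.9 and 12.4 CPM at day 6, against 79.5, 74.1 and 69.0 CPM at day 2 (log2 fold change -2.54 ± 0.08 SE, adjusted p = 1.00e-27). Tie1, an angiopoietin co-receptor, was at 3.10, 2.37 and 2.73 CPM at day 6, against 40.7, 37.6 and 45.5 CPM at day 2, and Eng, a TGF-beta co-receptor, at 6.37, 6.08 and 6.23 CPM at day 6, against 38.7, 40.7 and 41.8 CPM at day 2. Cldn5, the claudin of endothelial junctions, had no count at day 6 and 1.58, 1.52 and 1.94 CPM at day 2. Robo4 averaged 0.0815 ± 0.0395 CPM at day 6 and 4.29 ± 0.285 CPM at day 2, and Nos3, the endothelial nitric oxide synthase, 0.297 ± 0.151 CPM at day 6 and 6.61 ± 0.438 CPM at day 2. Of 11 tested genes of primitive blood, 4 were higher and 6 lower, with a median of -0.54, or 0.00 with genes at 0 put at their bound. Runx1, the factor of blood stem cell formation, averaged 11.8 ± 1.1 CPM at day 6 and 6.75 ± 0.479 CPM at day 2.

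Genes of primitive streak and early mesoderm had 8 of 26 tested higher, 13 lower and a median of -1.13. These counts lay not far from the shares of all genes, 39.6% higher and 41.6% lower. In parental cells 8 of the list were called higher and 16 lower, with a median of -1.42. A lean to lower calls was thus not particular to Oct1 cKO cells. Hand1 and Kdr, described above, are among the 8 that were higher in Oct1 cKO cells. Pdgfra, a receptor of primitive endoderm and of paraxial mesoderm, was at 188, 211 and 212 CPM at day 6, against 27.4, 31.8 and 27.3 CPM at day 2 (log2 fold change 2.82 ± 0.08 SE, adjusted p = 7.61e-24). Mesp2, a factor of somite borders, fell and averaged 0.239 ± 0.115 CPM at day 6 and 3.16 ± 0.738 CPM at day 2. Fgf8 had no count at day 6 and averaged 1.44 ± 0.386 CPM at day 2. Summed CPM of the list, 339 to 342 at day 6 and 81.9 to 88.6 at day 2, was higher at day 6. Most of the day 6 sum came from Pdgfra and Hand1, which other lineages also make.

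Heart and muscle genes were higher in 14 of 24 tested and lower in 7, with a median of 0.84. Acta2, smooth muscle actin, was at 119, 96.7 and 71.8 CPM at day 6, against 6.08, 7.87 and 9.69 CPM at day 2, and Myl4, an atrial light chain made in early heart, at 83.7, 73.1 and 79.8 CPM at day 6, against 6.53, 6.94 and 5.21 CPM at day 2. The day 6 libraries spread widely for Acta2, yet none came near day 2. Mymx, which fuses muscle cells, averaged 0.0802 ± 0.0338 CPM at day 6 and 25.7 ± 3.59 CPM at day 2.

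Pluripotency genes fell in 24 of 28 tested and rose in 3, with a median log2 fold change of -3.31. Pou5f1, which encodes Oct4, was at 30.8, 31.6 and 30.4 CPM at day 6, against 458, 423 and 435 CPM at day 2 (log2 fold change -3.82 ± 0.08 SE, adjusted p = 4.11e-26). Parental cells averaged 0.362 ± 0.184 CPM at day 6 and 93.2 ± 4.60 CPM at day 2, so the fall was smaller in Oct1 cKO cells (log2 difference 4.17 ± 0.24 SE, adjusted p = 9.73e-15). Nanog was at 0.476, 0.232 and 0.318 CPM at day 6, against 29.7, 25.8 and 30.9 CPM at day 2 (log2 fold change -6.37 ± 0.16 SE, adjusted p = 4.13e-30), and its fall was larger than in parental cells (log2 difference -2.28 ± 0.32 SE, adjusted p = 8.37e-08). Sox2 was at 0.953, 0.405 and 0.572 CPM at day 6, against 45.4, 45.1 and 48.2 CPM at day 2 (log2 fold change -6.15 ± 0.14 SE, adjusted p = 1.66e-31). For none of these 3 did a day 6 library reach a day 2 library. Dppa5a, an RNA-binding protein of ESCs, averaged 61.1 ± 2.58 CPM at day 6 and 1757 ± 50.2 CPM at day 2, and Tdgf1, the nodal co-receptor Cripto, 9.12 ± 1.03 CPM at day 6 and 368 ± 26.9 CPM at day 2. Fgf4, an ESC growth factor, was at 0, 0.232 and 0.191 CPM at day 6, against 48.0, 52.3 and 49.9 CPM at day 2.

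Some genes of this list went the other way or changed little. Klf4, which serves ESCs and also epithelia, was at 55.5, 51.8 and 48.8 CPM at day 6, against 14.1, 13.7 and 14.9 CPM at day 2 (log2 fold change 1.87 ± 0.07 SE, adjusted p = 1.57e-24). Sall4, a zinc finger factor of ESCs and of extraembryonic endoderm, averaged 135 ± 7.26 CPM at day 6 and 83.7 ± 3.81 CPM at day 2, and was also higher. Lin28a, the let-7 inhibitor, averaged 184 ± 8.14 CPM at day 6 and 304 ± 6.03 CPM at day 2, and Zfp42, known as Rex1, 39.4 ± 1.71 CPM at day 6 and 63.2 ± 5.27 CPM at day 2. Both fell by less than 2-fold. Undifferentiated ESCs would contribute to this list, whose summed CPM was 1044 to 1090 at day 6 and 4390 to 4579 at day 2.

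All 13 tested genes of the 2-cell-like state, a rare state of ESC cultures, were lower, with a median of -4.16. Zscan4d, which helps keep telomeres in ESCs, was at 5.06, 4.29 and 5.47 CPM at day 6, against 92.3, 92.7 and 106 CPM at day 2, and Usp17le averaged 3.49 ± 1.42 CPM at day 6 and 55.7 ± 5.42 CPM at day 2. Copies in these families share reads, so levels of single genes are uncertain. Formative and primed genes were higher in 6 of 17 tested and lower in 10, with a median of -1.20, while their summed CPM was 1214 to 1253 at day 6 and 937 to 969 at day 2. Zic2 averaged 0.429 ± 0.242 CPM at day 6 and 40.0 ± 4.47 CPM at day 2, while Car4, a carbonic anhydrase, was higher and averaged 614 ± 14.1 CPM at day 6 and 215 ± 13 CPM at day 2. Germ cell genes were higher in 5 of 18 tested and lower in 12, with a median of -1.66, while their summed CPM was 871 to 918 at day 6 and 800 to 870 at day 2. Stra8, which retinoic acid turns on before meiosis, was at 6.79, 4.63 and 5.78 CPM at day 6, against 299, 267 and 297 CPM at day 2 (log2 fold change -5.65 ± 0.09 SE, adjusted p = 1.05e-34). Dazl averaged 7.51 ± 0.457 CPM at day 6 and 82.9 ± 6.17 CPM at day 2. Those that rose included Tfap2c and Kit, the stem cell factor receptor, which averaged 193 ± 5.89 CPM at day 6 and 72.9 ± 3.90 CPM at day 2.

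Hox genes were more often lower than higher at day 6. In paralogue groups 1 to 5, 12 of 15 tested were lower and 1 higher, with a median of -1.03. In groups 6 to 13, 14 of 20 were lower and 2 higher, with a median of -1.75, or -1.54 at the bound. Hoxb1, the front gene of the HoxB cluster and a direct retinoic acid target, was at 2.50, 1.51 and 2.22 CPM at day 6, against 86.9, 91.3 and 87.7 CPM at day 2 (log2 fold change -5.42 ± 0.09 SE, adjusted p = 5.82e-34). Hoxb5 was at 0.715, 1.1 and 0.890 CPM at day 6, against 32.4, 33.5 and 39.4 CPM at day 2, and Hoxb9 at 2.20, 1.22 and 1.46 CPM at day 6, against 60.8, 61.9 and 65.5 CPM at day 2. All 3 were at or under 2.50 CPM in every day 6 library and far above that in every day 2 library. Hoxa5 fell less and averaged 16 ± 3.79 CPM at day 6 and 26.2 ± 2.09 CPM at day 2. The 3 that were called higher were Hoxa2, Hoxc8 and Hoxc9, at no more than 2.63 CPM on average, and only Hoxc9 was still called with library sizes alone. Hoxa2 was not called without day 6 replicate 1 (adjusted p = 0.114) or day 2 replicate 1 (adjusted p = 0.131), nor Hoxc8 without day 6 replicate 1 (adjusted p = 0.192).

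**Figure D3:**
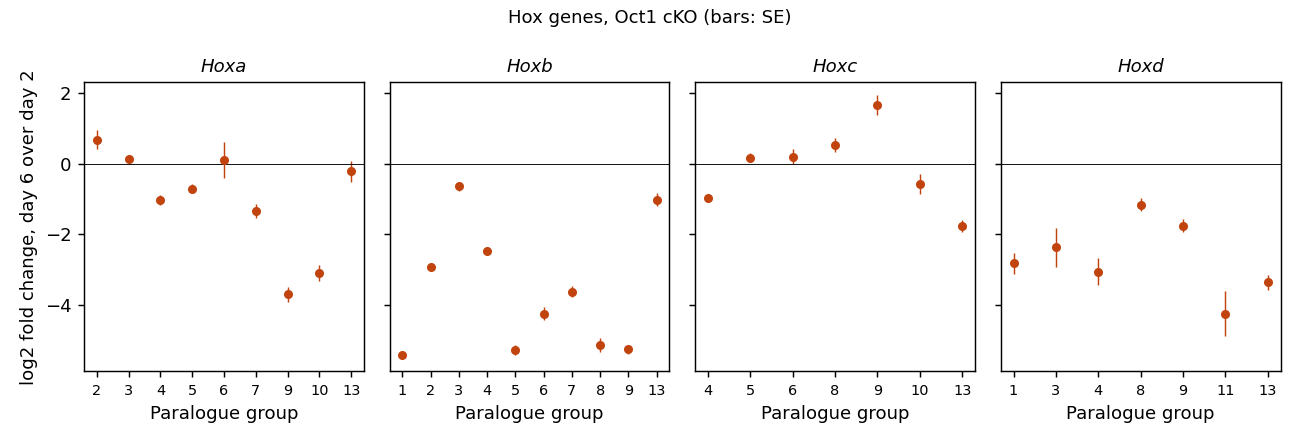
Log2 fold change of the Hox genes tested, day 6 over day 2 in Oct1 cKO cells, by cluster and paralogue group, with SE bars, leaving out genes with no count in a group and 1 that is not reported here. HoxB genes lie between -5.42 for Hoxb1 and -0.63 for Hoxb3, and the genes above 0 are all in HoxA or HoxC.

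Genes of the retinoic acid response were higher in 15 of 21 tested and lower in 6, with a median of 0.60. Cyp26a1, which degrades retinoic acid and is its classic target, was at 366, 332 and 306 CPM at day 6, against 216, 221 and 224 CPM at day 2 (log2 fold change 0.60 ± 0.05 SE, adjusted p = 8.76e-14). Cyp26b1, its relative, was at 281, 294 and 288 CPM at day 6, against 28.8, 29.0 and 30.9 CPM at day 2 (log2 fold change 3.28 ± 0.06 SE, adjusted p = 1.40e-34). Tgm2, a transglutaminase, averaged 528 ± 14.4 CPM at day 6 and 14.9 ± 2.01 CPM at day 2. The receptor Rarb, whose gene is itself a target, averaged 44.6 ± 4.38 CPM at day 6 and 8.58 ± 0.316 CPM at day 2, and its partner Rxra 167 ± 4.99 CPM at day 6 and 20.6 ± 0.246 CPM at day 2. Rarg, the receptor most abundant in early embryos, fell and averaged 12.6 ± 1.40 CPM at day 6 and 84.1 ± 6.81 CPM at day 2. Crabp1, a retinoic acid binding protein of neural tissue, averaged 1.82 ± 0.380 CPM at day 6 and 18 ± 2.57 CPM at day 2.

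Neural genes were more often lower. Among progenitor genes 12 of 18 tested were lower and 3 higher, with a median of -2.57, or -2.21 at the bound, and among neuron genes 12 of 17 were lower and 3 higher, with a median of -1.32. Pax6, a factor of neural and eye progenitors, was at 0.357, 0.116 and 0.127 CPM at day 6, against 6.97, 7.0 and 7.96 CPM at day 2 (log2 fold change -5.13 ± 0.27 SE, adjusted p = 7.53e-20). Stmn2, which binds tubulin in growing axons, was at 2.62, 1.68 and 1.33 CPM at day 6, against 117, 114 and 121 CPM at day 2, and Ebf1 averaged 1.15 ± 0.340 CPM at day 6 and 45.6 ± 2.60 CPM at day 2. Tubb3, the neuronal beta-tubulin, ran against the list, at 29.2, 21.8 and 24.4 CPM at day 6, against 6.27, 5.02 and 6.95 CPM at day 2 (log2 fold change 2.06 ± 0.13 SE, adjusted p = 1.06e-14). Irx3, a homeobox factor of the neural plate and of other tissues, was at 67.8, 53.7 and 60.9 CPM at day 6, against 3.99, 4.14 and 3.74 CPM at day 2. Neural crest genes were higher in 5 of 13 tested and lower in 7, with a median of -1.14.

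Signals of the TGF-beta superfamily act through Smad proteins, which the series title names. Of 25 ligands and inhibitors tested, 13 were higher and 11 lower, with a median of 1.02. The nodal branch fell. Nodal was at 1.85, 0.869 and 1.65 CPM at day 6, against 81.5, 72.1 and 73.4 CPM at day 2, and its feedback inhibitors Lefty1 and Lefty2 were at 0.774, 1.16 and 0.826 and 0.119, 0.232 and 0.254 CPM at day 6, against 100, 90.9 and 94.9 and 71.9, 70.6 and 78.2 CPM at day 2. Lefty1 had a log2 fold change of -6.68 ± 0.11 SE (adjusted p = 1.12e-35). Gdf3, a ligand that works with Nodal, had 3 counts over the day 6 libraries and 24.3, 24.1 and 23.9 CPM at day 2, where its level was 400 times as high with a 95% counting interval of 137 to 1945.

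Other members of the list were higher, among them inhibitors and ligands. Fst, which traps activins, was at 183, 194 and 190 CPM at day 6, against 1.39, 1.17 and 1.14 CPM at day 2 (log2 fold change 7.25 ± 0.11 SE, adjusted p = 2.17e-37). Bmp2 was at 16.1, 15.5 and 15.5 CPM at day 6, against 0.444, 0.875 and 0.535 CPM at day 2, and Tgfb2 at 21.5, 21.9 and 16.5 CPM at day 6, against 1.52, 1.52 and 2.01 CPM at day 2. Bmper, which binds BMPs outside the cell, averaged 9.16 ± 2.02 CPM at day 6 and 0.435 ± 0.0782 CPM at day 2. Smads and receptors were higher in 15 of 19 tested and lower in 2, with a median of 0.89. Tgfbr2 and Tgfbr3, the TGF-beta receptors II and III, averaged 36.6 ± 1.53 and 155 ± 6.91 CPM at day 6, against 3.57 ± 0.578 and 17.8 ± 0.692 CPM at day 2. Smad3, which carries nodal, activin and TGF-beta signals, was at 60.3, 60.1 and 56.9 CPM at day 6, against 26.2, 23.7 and 27.5 CPM at day 2. The inhibitory Smad7 rose and Smad6 fell, with averages of 44.8 ± 1.45 CPM at day 6 and 23.8 ± 0.808 CPM at day 2 and of 8.16 ± 1.43 CPM at day 6 and 17.6 ± 1.17 CPM at day 2.

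Smad target genes were higher in 14 of 22 tested and lower in 8, with a median of 0.80. Id1, a target of BMP signals, was at 52.0, 48.9 and 51.2 CPM at day 6, against 28.3, 28.6 and 28.5 CPM at day 2 (log2 fold change 0.83 ± 0.07 SE, adjusted p = 1.07e-13). Id3 averaged 31.5 ± 1.84 CPM at day 6 and 18.6 ± 1.85 CPM at day 2. Junb, a target of TGF-beta, averaged 31.9 ± 4.23 CPM at day 6 and 2.72 ± 0.573 CPM at day 2. Skil, a brake on Smad activity that TGF-beta also induces, fell and averaged 83.6 ± 0.964 CPM at day 6 and 290 ± 15.1 CPM at day 2.

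Most stromal matrix and mesenchymal genes had a lower step than in parental cells. Of 22 fibroblast and stromal genes tested, 15 were higher and 5 lower, with a median of 0.87, and the difference from the parental step was called lower for 17 and higher for 0. Col3a1 averaged 166 ± 20.2 CPM at day 6 and 4.56 ± 0.447 CPM at day 2 in Oct1 cKO cells, while parental cells had 1137 ± 64.1 CPM at day 6 and 6.64 ± 1.19 CPM at day 2. Col1a1 averaged 232 ± 29.6 CPM at day 6 and 44.9 ± 6.29 CPM at day 2, and parental cells had 2038 ± 86.9 and 56.7 ± 1.62 CPM on these days. These genes also mark feeder fibroblasts, and their summed CPM was 729 to 884 at day 6 and 226 to 269 at day 2. Thy1, a fibroblast surface protein of the list, ran against the 15 that were higher. It averaged 2.06 ± 0.344 CPM at day 6 and 4.78 ± 0.964 CPM at day 2. What part feeder cells had in any of these values was not tested. Of 16 genes of mesenchymal transition, 10 were higher and 4 lower, with a median of 0.64, and for 14 the difference was called lower. Ncam1 averaged 40.1 ± 1.36 CPM at day 6 and 4.89 ± 0.467 CPM at day 2.

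Cell cycle genes fell in 22 of 24 tested and 1 rose, with a median of -0.96. Mki67, the Ki-67 antigen of dividing cells, was at 214, 243 and 250 CPM at day 6, against 480, 524 and 462 CPM at day 2 (log2 fold change -1.05 ± 0.10 SE, adjusted p = 1.34e-07). Top2a, a topoisomerase of S phase and mitosis, averaged 482 ± 4.64 CPM at day 6 and 1515 ± 25.2 CPM at day 2, and Ccnb2, a mitotic cyclin, 64.5 ± 0.908 CPM at day 6 and 232 ± 5.48 CPM at day 2. The gene called higher was Cdc6, at 57.1 ± 1.92 CPM at day 6 and 51.3 ± 2.39 CPM at day 2 on average, and its log2 fold change of 0.16 ± 0.05 SE turned to -0.03 with library sizes alone. It was not called without day 6 replicate 1 (adjusted p = 0.0579) or day 2 replicate 2 (adjusted p = 0.0511). Cdkn1a, the p21 inhibitor of the cycle, was at 151, 140 and 144 CPM at day 6, against 134, 127 and 133 CPM at day 2. Its log2 fold change of 0.14 ± 0.06 SE (adjusted p = 0.0455) changed sign to -0.05 with library sizes alone and was not called without day 6 replicate 1 or 3 or without any of the 3 day 2 replicates, with adjusted p from 0.0772 to 0.194.

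Synthesis of sterols and fatty acids fell in 18 of 20 tested and rose in 2, with a median of -1.50. Hmgcs1, an early enzyme of the sterol pathway, was at 203, 200 and 189 CPM at day 6, against 717, 700 and 669 CPM at day 2, and Dhcr7, its last enzyme, at 42.5, 41.9 and 39.7 CPM at day 6, against 279, 263 and 263 CPM at day 2. Scd2, a desaturase of fatty acids, averaged 1020 ± 35.7 CPM at day 6 and 4110 ± 51.9 CPM at day 2, and Elovl6 43.9 ± 3.27 CPM at day 6 and 266 ± 4.28 CPM at day 2. Insig1, which holds back sterol synthesis, was among those that rose and averaged 469 ± 23.0 CPM at day 6 and 365 ± 16.3 CPM at day 2. Glycolysis genes were higher in 7 of 21 tested and lower in 14, with a median of -0.68. The glucose transporters parted. Slc2a1 was at 2625, 2450 and 2530 CPM at day 6, against 1125, 1162 and 1262 CPM at day 2, and Slc2a3 was at 1567, 1628 and 1622 CPM at day 6, against 4108, 4179 and 4156 CPM at day 2. Pkm averaged 1937 ± 123 CPM at day 6 and 3633 ± 194 CPM at day 2, and Txnip, which holds back glucose uptake, 337 ± 27.6 CPM at day 6 and 2058 ± 104 CPM at day 2.

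Lysosome genes were higher in 17 of 21 tested and lower in 2, with a median of 0.91, and 4 were lower with library sizes alone. Ctsb, a lysosomal protease, was at 1633, 1630 and 1692 CPM at day 6, against 310, 295 and 277 CPM at day 2 (log2 fold change 2.49 ± 0.05 SE, adjusted p = 4.14e-34). Psap, the precursor of the saposins that help degrade sphingolipids, averaged 2779 ± 80.8 CPM at day 6 and 559 ± 30.5 CPM at day 2. Tfeb, the factor that turns on lysosome genes, was at 107, 103 and 112 CPM at day 6, against 9.63, 8.81 and 9.83 CPM at day 2. Lamp1, a protein of the lysosome membrane, averaged 1347 ± 21.6 CPM at day 6 and 478 ± 15.1 CPM at day 2.

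Imprinted genes were higher in 17 of 24 tested and lower in 5, with a median of 1.59. H19, a maternally expressed RNA abundant in placenta and endoderm, was at 14354, 12854 and 13339 CPM at day 6, against 686, 670 and 644 CPM at day 2 (log2 fold change 4.34 ± 0.06 SE, adjusted p = 7.34e-39). Its neighbour Igf2, the paternally expressed growth factor, was at 50.4, 47.4 and 49.7 CPM at day 6, against 2.41, 1.92 and 2.14 CPM at day 2 (log2 fold change 4.51 ± 0.11 SE, adjusted p = 1.80e-30). Cdkn1c, an inhibitor of the cell cycle next to that domain, averaged 284 ± 19.2 CPM at day 6 and 25.2 ± 0.190 CPM at day 2. Peg3 averaged 3362 ± 176 CPM at day 6 and 605 ± 16 CPM at day 2, and Plagl1, which binds many imprinted loci, 193 ± 1.27 CPM at day 6 and 13.2 ± 0.387 CPM at day 2. Igf2r and Grb10, maternally expressed brakes on growth, fell and averaged 49.0 ± 2.25 CPM at day 6 and 195 ± 4.55 CPM at day 2 and 38.2 ± 0.383 CPM at day 6 and 184 ± 9.84 CPM at day 2.

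Among the genes that the naming rule picked for the largest rises, 4 belong to none of the groups above. Fnd3c2 was at 15.6, 19.4 and 17.2 CPM at day 6 and at 0 on day 2, at least 92.3-fold higher, and Slc28a2, a nucleoside transporter, at 11.1, 10.5 and 10.4 CPM and at 0, at least 56.5-fold higher. Cxcr2, a chemokine receptor, was at 70.6, 73.7 and 79.2 CPM at day 6 and had 2 counts at day 2, a ratio of 1781 with a counting interval of 493 to 14709. Fam78b was at 55.3, 57.3 and 57.3 CPM at day 6 and had 1 count at day 2, a ratio of 2711 with an interval of 486 to 107128.

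Col6a5, a collagen VI chain, had the largest fall by its bound. It had no count at day 6 and 36.7, 38.4 and 36.3 CPM at day 2, at least 205-fold lower. Pla2g1b, a secreted phospholipase, and Fam25c also had no count at day 6, with 36.6, 35.6 and 37.2 and 39.7, 31.4 and 38.9 CPM at day 2, each at least 202-fold lower. Pipox, which breaks down sarcosine and pipecolic acid, was at least 73.5-fold lower and Crisp1 at least 39.6-fold. Platr11, a noncoding RNA of ESCs, Ackr4, Apod and Cdk5r2 had no count at day 6 and were at least 32.0-, 29.9-, 22.6- and 22.5-fold lower. Obox6, an oocyte and early embryo homeobox gene, had 1 count at day 6 and averaged 25.8 ± 1.52 CPM at day 2. Platr10 and Mcf2 had 1 and 2 counts at day 6 and averaged 17.2 ± 1.99 and 20.9 ± 0.670 CPM at day 2.

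The 10 genes picked for the largest falls in CPM were Apoe, Scd2, Slc2a3, Txnip, Dppa5a and Pkm, described above, and 4 genes that every cell uses. Eef1a1, which brings tRNA to the ribosome, averaged 7471 ± 274 CPM at day 6 and 11515 ± 752 CPM at day 2. Rpl4, a ribosomal protein, averaged 2015 ± 89.6 CPM at day 6 and 3545 ± 126 CPM at day 2. Hsp90ab1, a chaperone, averaged 3781 ± 136 CPM at day 6 and 5528 ± 217 CPM at day 2, and Ftl1, the ferritin light chain, 1721 ± 101 CPM at day 6 and 3172 ± 114 CPM at day 2.

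The parental step from day 2 to day 6 shares no library with the Oct1 cKO step. In parental cells 79.6% of genes were called, 42.6% higher and 36.9% lower, and 17.8% were at least 2-fold higher and 19.7% at least 2-fold lower. Which direction had more calls there depended on the scaling and tool, with 7826 higher and 6777 lower by TMM, 6469 higher and 8141 lower with library sizes alone, and 7035 higher and 7227 lower with DESeq2. Of the 3921 genes at least 2-fold higher in Oct1 cKO cells, 1887 were also at least 2-fold higher in parental cells, which is 48.1% of the Oct1 cKO list and 57.7% of the parental list of 3273. Another 159, or 4.06%, were called in the opposite direction in parental cells. Of the 4467 at least 2-fold lower, 2591 were shared, or 58.0% of the Oct1 cKO list and 71.6% of the parental list of 3621. A test of the difference between the steps called 5777 genes higher (31.5%) and 5880 lower (32.0%). That balance moved to 6465 higher and 5188 lower with DESeq2 size factors, to 6283 and 5117 with DESeq2, and to 6051 and 5286 without Oct1 cKO day 6 replicate 2.

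The counts of the lists are read beside those 31.5% and 32.0%. Of 24 trophoblast regulators, the difference was higher for 21 and lower for 1, and the median step was 2.63 in Oct1 cKO cells and 0.94 in parental cells. For simple epithelium it was higher for 27 of 30 and lower for 0, with a median step of 1.34 in Oct1 cKO cells and -0.58 in parental cells. For endoderm factors it was higher for 15 of 17 and lower for 2. Hox genes leaned the other way, with 12 of 15 lower in groups 1 to 5 and 13 of 20 lower in groups 6 to 13. No set of genes was tested as a whole.

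For Krt7 the step was larger in Oct1 cKO cells by a log2 difference of 3.32 ± 0.11 SE, adjusted p = 4.82e-25, and parental cells averaged 110 ± 10.1 CPM at day 6 and 15 ± 0.765 CPM at day 2. For Cdh5 the difference was 3.27 ± 0.36 SE, adjusted p = 4.57e-10, and for Hand1 2.96 ± 0.17 SE, adjusted p = 9.31e-18. Parental Cdh5 averaged 90.3 ± 6.86 CPM at day 6 and 0.942 ± 0.153 CPM at day 2, and parental Hand1 17.7 ± 1.75 and 5.88 ± 0.118 CPM. For Apoa1 the difference did not pass the test (-0.23 ± 0.47 SE, adjusted p = 0.690), and parental cells averaged 30.3 ± 2.06 CPM at day 6 and 0.245 ± 0.186 CPM at day 2. Gata6 rose far less in Oct1 cKO cells than in parental cells, which averaged 304 ± 8.71 CPM at day 6 and 10.8 ± 0.650 CPM at day 2 (log2 difference -3.45 ± 0.10 SE, adjusted p = 1.91e-27). Of the placental products, the difference was called higher for 12 of 19 and lower for 0. It was called higher for 2 of 7 Serpinb9 genes, 1 of 4 Psg genes, 2 of 7 Ceacam genes and 5 of 13 Rhox genes, and lower for none of these. Higher calls in these 4 families were thus not far from the 31.5% of all genes. The edgeR test called 0 of 14 prolactin-like genes and 0 of 4 placental cathepsins in either direction, and 0 of either had an unadjusted p under 0.05. DESeq2 called 1 of the 14 and 0 of the 4. Most prolactin-like genes and placental cathepsins had no count at day 2 in Oct1 cKO cells, so the test could hardly find a difference there. Tpbpa averaged 98.3 ± 6.89 CPM in parental cells at day 6, with no count at day 2.

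**Figure D4:**
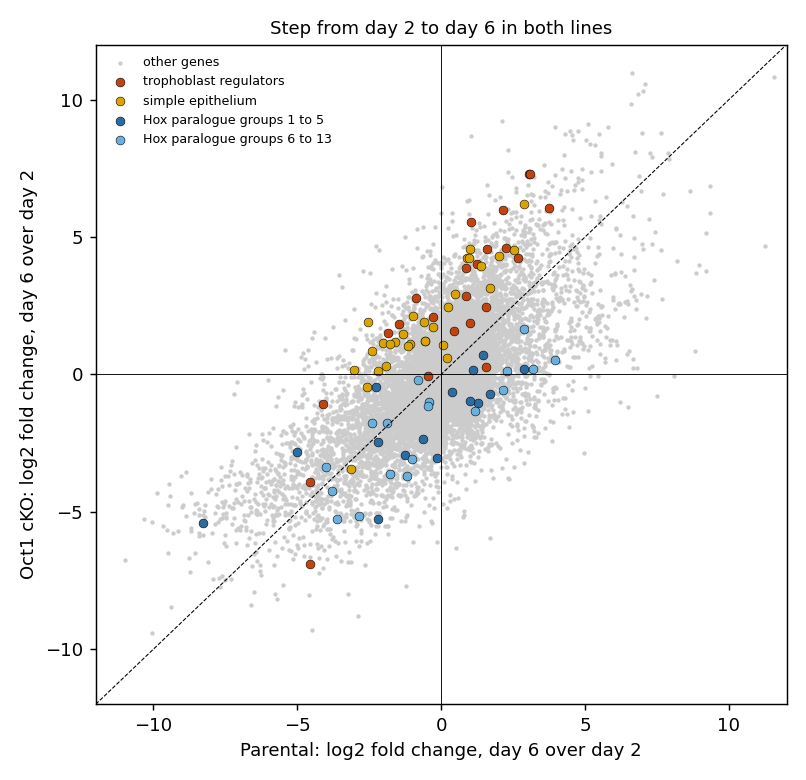
Log2 fold change of day 6 over day 2 in Oct1 cKO cells (vertical) and parental cells (horizontal) for 16149 genes with a count in all 4 groups and a mean of at least 1 CPM in any, with the line of equal steps dashed. Trophoblast regulators and simple epithelium genes lie mostly above the line and Hox genes mostly below it.

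Over the whole course Krt7 and Rhox6 did not climb evenly. For day 0 no retinoic acid or gelatin is given, so these libraries may differ from the later ones in culture as well as in day. Krt7 averaged 2.51, 5.17 and 379 CPM at days 0, 2 and 6 in Oct1 cKO cells, and 3.29, 15 and 110 CPM in parental cells. Rhox6 averaged 2.61, 3.66 and 586 CPM in Oct1 cKO cells and 2.10, 10.2 and 84.0 CPM in parental cells. Most of the rise of both genes in Oct1 cKO cells thus fell after day 2, and at day 2 both stood below their parental level. Pou5f1 averaged 1517, 439 and 31.0 CPM in Oct1 cKO cells and 893, 93.2 and 0.362 CPM in parental cells.

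**Figure D5:**
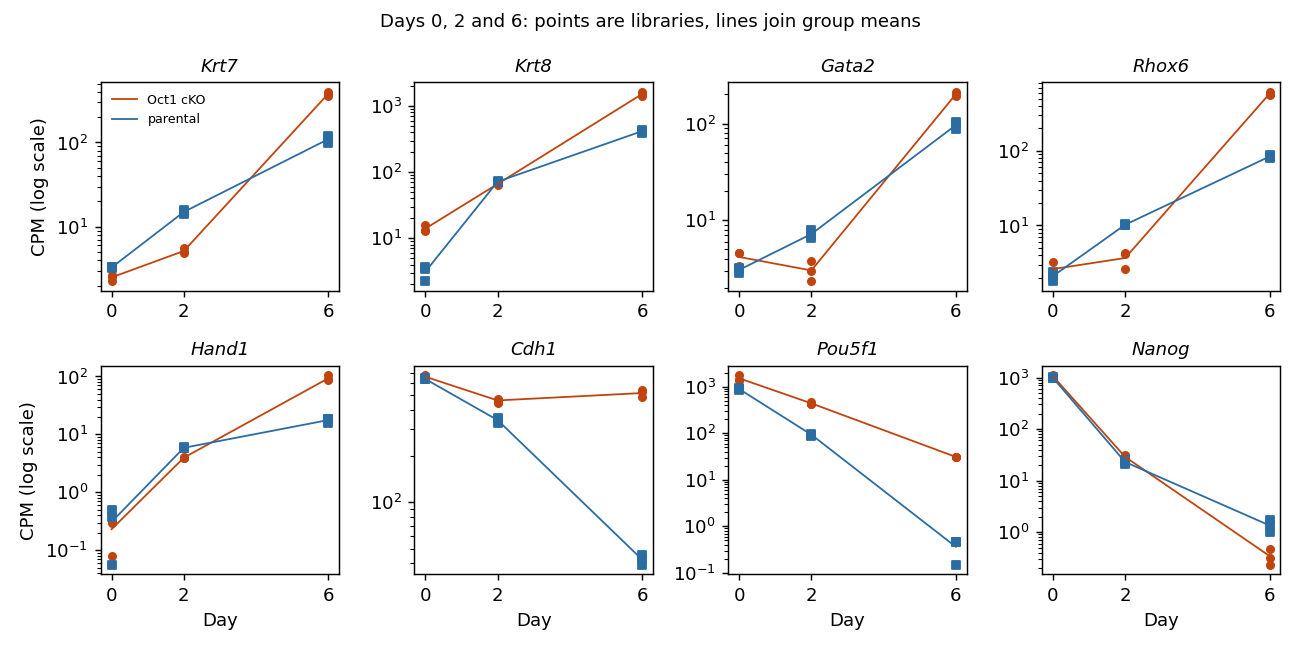
CPM of 8 genes at days 0, 2 and 6 on log axes, with Oct1 cKO libraries as circles and parental libraries as squares, and lines through the group means. Krt7, Krt8, Gata2, Rhox6 and Hand1 end higher in Oct1 cKO cells, Cdh1 and Pou5f1 fall further in parental cells, and Nanog falls in both.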

How the data were processed

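RNA of mouse ESC cultures was sequenced in 18 libraries, 3 for each of Oct1 cKO and parental cells at days 0, 2 and 6. The deposited counts are whole reads per Ensembl gene for 21995 genes, not normalized. Per the submitters' processing notes, Novoalign, DESeq2 1.10.0 and the builds mm10 and GRCm38 were named, with no role stated. The counter, strand setting and treatment of reads with several matches are unknown (not given in the sources used here), so antisense and near-identical genes cannot be told apart. Libraries were grouped by the labels. Replicates in a group differed by more than sampling noise (chi-square per degree of freedom 1.708 to 3.977, where noise gives 1 with an SD of 0.011), so none was merged.

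Counts were tested with edgeR 4.0.16 in R 4.3.3 (TMM, filterByExpr with a minimum count of 10 and total of 15, glmQLFit with robust settings, glmQLFTest), all 18 libraries in 1 fit, with Benjamini-Hochberg adjustment over 18352 genes. The procedure was also run on simulated data in which few genes changed, as many up as down. That run does not check the scaling of a step in which most genes were called. CPM used the TMM-scaled library sizes. A group with no count was given a floor of 3 counts per library, and ratios with 1 to 3 counts have 95% counting intervals. Both cover counting error only. Alternatives were DESeq2 1.42.0, its size factors in edgeR, no scaling factor, no filter, only the libraries compared, each library of a comparison left out in turn, and glmTreat against a fold of 1.5.

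Named genes are Pou2f1, 30 fixed genes, members of 36 lists, and called genes picked by size of change. List members were taken at first by the smallest adjusted p, so those named tend to be the clearest of their list. Genes picked by size of change had separate groups, a mean log2 CPM of at least 1 and an official symbol that is not a predicted (Gm or Rik) name. They are the 15 with the largest increase, the 15 with the largest decrease, and the 10 and 10 with the largest differences in CPM. Of 707 list genes, 679 are in the table. A few of these genes are left out of the text. The genes, lists and tests were chosen with earlier results of these data known. Promoters and gene positions came from RefSeq (GRCm38.p6) and GENCODE (GRCm38).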

Additional observations from a re-analysis of the deposited data

Results flagged for a closer look

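For 26 of the 30 genes chosen to be reported in every comparison, the step from day 2 to day 6 differed between Oct1 cKO and parental cells by a test of the difference itself (edgeR's quasi-likelihood test, adjusted p under 0.05). The same test called 63.5% of all 18352 genes. No explanation was weighed for any of these differences, which are log2 values of the Oct1 cKO step minus the parental step.

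Among these fixed genes, 5 of epithelium and trophoblast had the larger rise in Oct1 cKO cells. Their differences were 3.32 for Krt7, 1.98 for Krt8, 2.96 for Hand1, 3.83 for Elf5 and 1.57 for Cdx2. The same test called 0 of 14 prolactin-like genes and 0 of 4 placental cathepsins. Their day 2 means in Oct1 cKO cells were at most 0.0194 and 0.0211 CPM. At such levels the test could hardly find a difference, so it does not show whether these families followed. Cdh5 had 3.27. Cdh1, whose level fell in parental cells, had 3.18, and Cdh2 had -0.94, a smaller rise in Oct1 cKO cells. Among endoderm genes, Hnf4a had 2.06 and Gata4 0.56, while Gata6 had -3.45 and Col4a1 -0.37. The imprinted neighbours H19 and Igf2 had 2.12 and 2.43.

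Falls were smaller in Oct1 cKO cells for Pou5f1, with a difference of 4.17, for Sox2 with 1.39, for Eomes with 3.02, for Hoxb1 with 2.86 and for Lefty1 with 2.08. The difference of Sox2 was not called without Oct1 cKO day 6 replicate 1, at 0.98 with an adjusted p of 0.105. Falls were larger in Oct1 cKO cells for Nanog, with -2.28, for Pax6 with -3.94 and for Mki67 with -0.56. Tubb3 had 1.73, and Cyp26a1, which rose in Oct1 cKO cells and fell in parental cells, had 0.90. Id1 had -1.13 and Cdkn1a -0.62, both with a smaller rise in Oct1 cKO cells by the scaling used.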

How the results depend on the processing

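Testing against a fold of 1.5 with glmTreat lowered several counts of called genes: 4795 higher in Oct1 cKO cells at day 6, 8359 in parental cells (4315 higher, 4044 lower), and 6493 for the difference between the steps (3351 higher, 3142 lower). Leaving out 1 library gave 14637 to 14746 called genes for the Oct1 cKO step, 14286 to 14375 for the parental step and 11337 to 11409 for the difference, where only Oct1 cKO libraries were left out. Library sizes with no scaling factor reversed Cdh1 (-0.03), Cdc6 (-0.03) and Cdkn1a (-0.05). The same scaling lowered Hox genes called higher in groups 1 to 5 to 0 and in groups 6 to 13 to 1, cell cycle genes called higher to 0, and raised lysosome genes called lower to 4. Of 2277 values recomputed for 207 genes picked by the naming rule, 2262 kept their direction and side of the threshold, and of 864 list counts 838 stayed within 1.5 times. Of the 26 that moved, 13 did so under glmTreat. Many of the 207 genes were picked for large changes or small adjusted p, so their stability does not stand for that of all genes. In a fit of only the libraries compared, the difference for Pou2f1 was called (0.28, adjusted p = 0.00228). The cause of these changes was not tested. No paired analysis was possible because the labels give no replicate numbers that tie a library of one group to a library of another. A gene with no count in a group was set at a floor of 3 counts per library, which is a cautious choice. Low genes such as the late placental families thus carry wide limits, which cover counting error only.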

Other observations

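Interferon and antigen presentation genes, which tell cells of viral RNA and show peptides at the surface, showed no common direction. Of 20 tested, 10 were higher at day 6 than at day 2 in Oct1 cKO cells and 9 lower, with a median log2 fold change of 0.61. Irf7, which amplifies the interferon response, was at 10.4, 10.3 and 10.9 CPM at day 6, against 0.190, 0.292 and 0.468 CPM at day 2. Isg15, a ubiquitin-like protein of that response, averaged 6.91 ± 0.736 CPM at day 6 and 0.572 ± 0.267 CPM at day 2. B2m, the light chain of class I molecules, was at 130, 134 and 134 CPM at day 6, against 44.5, 44.4 and 45.1 CPM at day 2, and the heavy chain gene H2-D1 at 242, 235 and 252 CPM at day 6, against 101, 102 and 94.5 CPM at day 2. H2-K1, the other heavy chain, went against them, at 154, 146 and 152 CPM at day 6, against 420, 443 and 418 CPM at day 2. Since H2-D1 and H2-K1 are similar genes, reads may be shared between them. The difference from the parental step was called higher for 18 of the 20 genes and lower for 2.

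Genes of stratified epithelium were higher in 8 of 12 tested and lower in 3, with a median of 1.79, or 1.37 at the bound. Sfn, a 14-3-3 protein of epithelia, was at 56.7, 51.8 and 55.0 CPM at day 6, against 9.13, 8.52 and 9.23 CPM at day 2, while Krt14, a basal keratin, averaged 3.43 ± 0.613 CPM at day 6 and 0.481 ± 0.0229 CPM at day 2 and its partner Krt5 0.179 ± 0.0962 CPM at day 6 and 0.835 ± 0.0455 CPM at day 2. Targets of p53 showed no common direction, with 7 of 18 higher, 8 lower and a median of -0.04. Btg2, which slows the cell cycle, led those that rose, at 276, 265 and 268 CPM at day 6, against 33.5, 33.8 and 31.9 CPM at day 2. Of 25 replication-dependent histone genes, 2 were higher and 17 lower, with a median of -2.19. Histone RNAs of this kind lack a poly(A) tail and near-identical copies can share reads, so their level depends on RNA selection and counting that the sources used here do not give. All 6 tested Gata genes were higher, and all 6 Zscan4 genes were lower.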
